A study of Arabidopsis thaliana with 6 samples.

Results

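Transcripts that were most abundant in roots lacking the transcription factor RSL4, intermediate in wild-type roots and least abundant in roots expressing RSL4 from the 35S promoter were examined in Arabidopsis thaliana seedlings. Members were selected on their signals on all 6 arrays of the study. Membership required that both rsl4-1 arrays lay above both Col-0 arrays and that both Col-0 arrays lay above both 35S::RSL4 arrays. Each of the 2 steps, from rsl4-1 to Col-0 and from Col-0 to 35S::RSL4, had to be at least 0.3 on the log2 scale, and the mean rsl4-1 signal had to be at least 40. Of 22746 probe sets, 52 met this pattern (0.229% of those examined). The same thresholds in the rising direction, with the minimum signal set on 35S::RSL4, were met by 139 probe sets (0.611%). After genes of 2 chromosomal stretches, several gene families, class III peroxidases and CAP genes were left out, 46 probe sets remained, and these are the members described here.

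The samples were roots at growth stage 3.20, 2 per genotype, each on its own Affymetrix ATH1 array, a microarray read from the 3' part of each transcript. Seedlings stood on vertical MS plates with 1% sucrose at 25 °C under constant light. Col-0 is the wild type and the background of all plants, rsl4-1 carries an insertion of transfer DNA in RSL4, and 35S::RSL4 plants carry RSL4 behind the cauliflower mosaic virus promoter, which is active in most plant tissues rather than in hair cells alone. The label for genetic variation reads knock-out for rsl4-1 and for 35S::RSL4 alike, so the genotypes were taken from the sample titles, and no probe set was matched to RSL4 to check them. The Col-0 labels open with a cold treatment of seeds of 2 days and later give 4 days, while those of the other genotypes give 4 days throughout, so any effect of such a difference cannot be told apart from genotype.

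RSL4 is a basic helix-loop-helix protein that promotes the elongation of root hairs, which grow out of single epidermal cells and take up water and nutrients. It acts downstream of RHD6 and is known mainly as an activator of genes for cell wall remodelling and tip growth. Root epidermis also holds non-hair cells, and the samples were whole roots. In whole roots, fewer cells of a type and less RNA per cell cannot be told apart.

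Signals are the authors' MAS5 values in scaled units. Arrays of one genotype correlated at 0.982 to 0.986 across 14170 probe sets that exceeded the 40th percentile of at least 2 arrays, and arrays of different genotypes at 0.957 to 0.972; probe sets are not independent replicates. Whether the 2 samples of a genotype were grown separately is not stated in the labels, so their spread, which sets all p-values, may be technical. Because the rule used all 6 arrays, the members' differences are given as descriptions, and no p-value is given for a member. The median of all probe sets itself differed between genotypes, by 0.11 on the log2 scale from Col-0 down to 35S::RSL4 and by -0.05 from rsl4-1 to Col-0, where it was lower in rsl4-1. Dividing each array by its median left 28 probe sets that met the rule, of which 25 were among the 46 members.

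The 46 members spanned a wide range of abundance. Their mean signal in rsl4-1 ran from 41.5 to 874 with a median of 86.0, in Col-0 from 15.7 to 572 with a median of 63.7, and in 35S::RSL4 from 9.68 to 336 with a median of 45.4. Ranked among all probe sets in Col-0, they lay between percentiles 35.4 and 95.3, with a median of 59.2. All 46 passed the filter on dim probe sets, which the minimum signal in rsl4-1 favours. The step from rsl4-1 to Col-0 had a median of 0.41 (range 0.30 to 0.91 outside the dim 247718_at), and the step from Col-0 to 35S::RSL4 a median of 0.46 (range 0.30 to 1.17). From rsl4-1 to 35S::RSL4 the median difference was 1.85-fold, with a range from 1.53-fold to 3.76-fold outside 247718_at, which was below the 40th percentile in Col-0 and 35S::RSL4 and allows only a bound. The grading itself is required by the rule. Most of the differences were small: 15 of 46 reached 1 on the log2 scale over both steps together, 3 reached 1.5 and 1 reached 2.

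**Figure D1:**
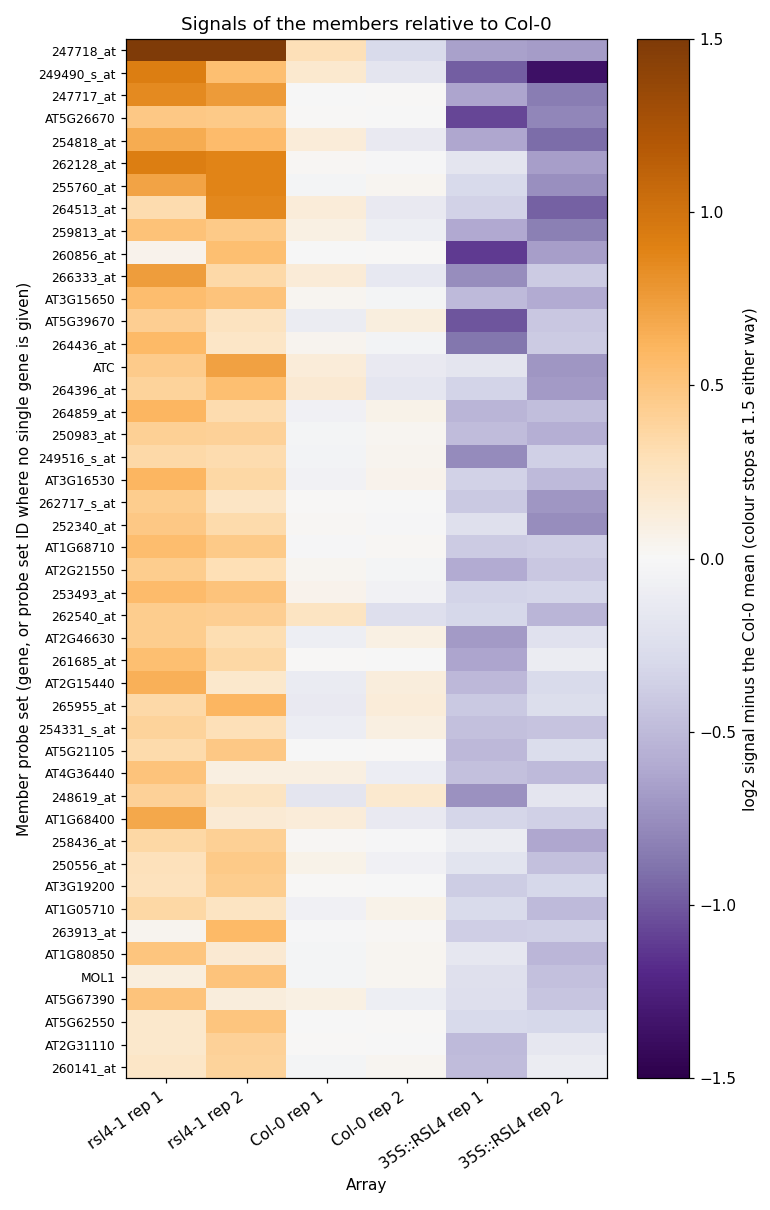
Log2 signal of each of the 46 members (rows, ordered by the total difference, largest at the top) on each of the 6 arrays (columns), relative to the mean of the 2 Col-0 arrays. The rsl4-1 arrays are above Col-0 and the 35S::RSL4 arrays below it in every row, as the rule requires, and only the top rows reach strong colours.

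The annotation assigned 1 gene to 19 members and several genes to 2, and held no entry for the other 25, which are given by probe set identifier. A single gene was thus given for 41.3% of the members and for 59.4% of all 22746 probe sets, of which 8730 had no entry. The 19 genes are all protein coding. Of the 19, 4 lie on chromosome 1, 5 on chromosome 2, 3 on chromosome 3, 1 on chromosome 4 and 6 on chromosome 5. Outside the left-out loci, the same chromosomes held 18.9%, 18.2%, 21.6%, 16.3% and 25.1% of 11793 probe sets with 1 gene. The closest pair, AT1G68400 and AT1G68710, were 39 annotated loci apart, and AT3G15650 and AT3G16530 were 112 apart, so no members were immediate neighbours among the named loci. The other members had no single locus and were not part of this check. The unlisted 247717_at and 247718_at carry consecutive probe set numbers, and whether their genes are neighbours was not assessed. Probe sets that can bind several related transcripts made up 4 of the 46 members (8.70%) and 4.11% of all probe sets.

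**Figure D2:**
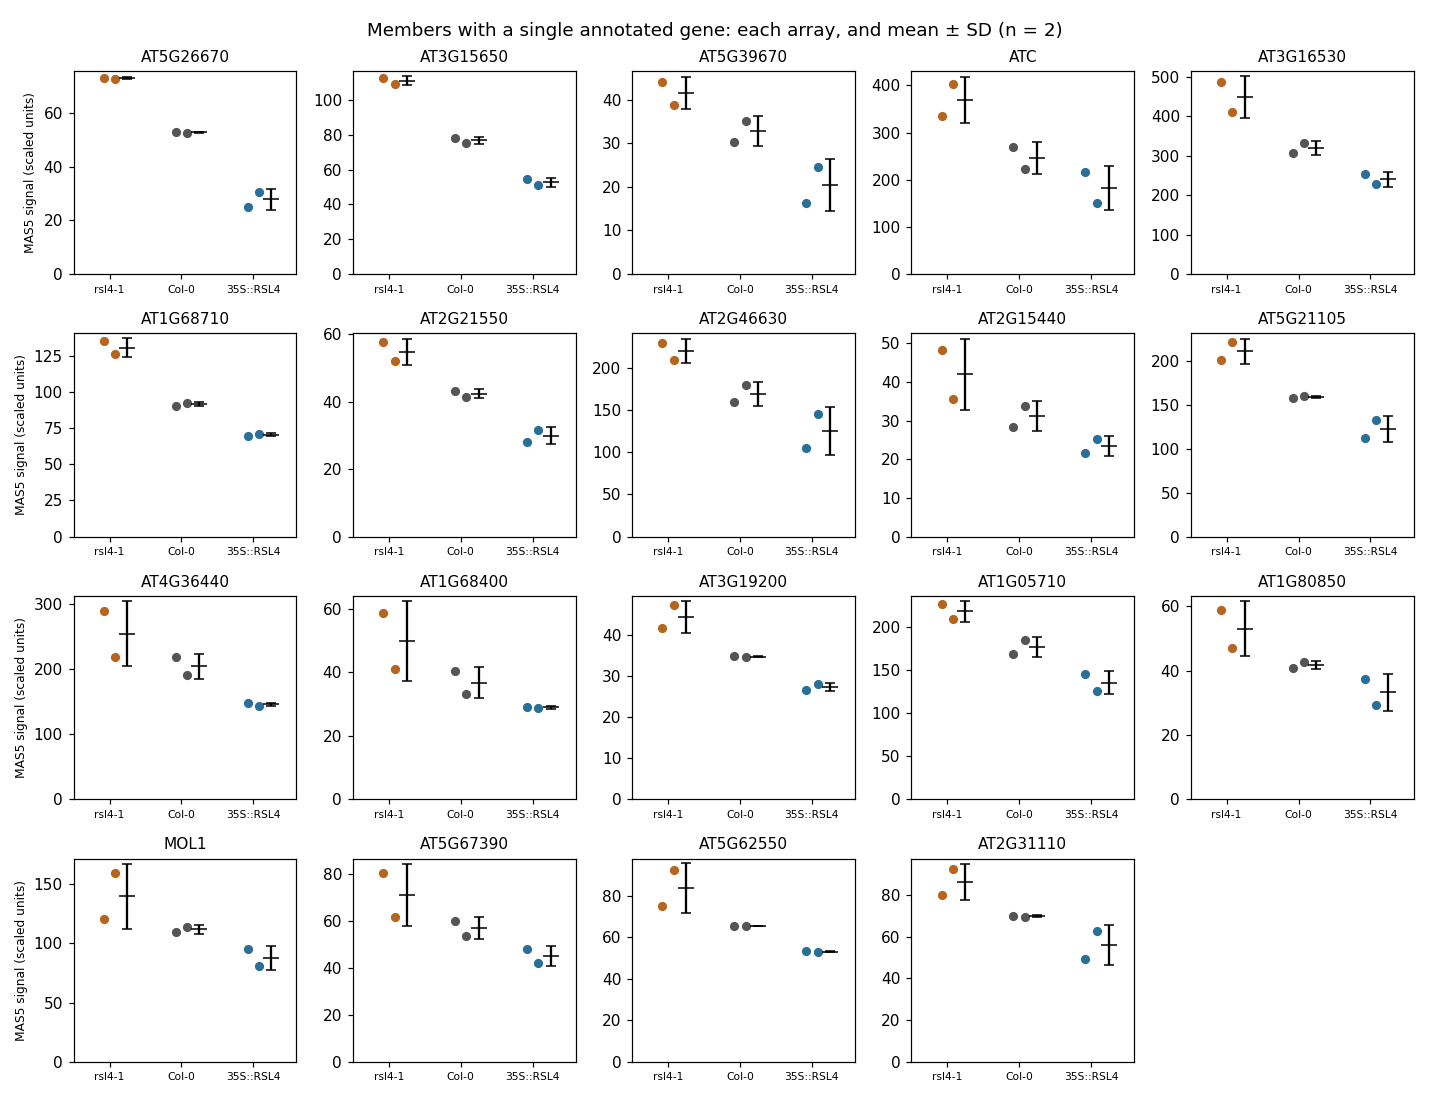
MAS5 signal (vertical axes, scaled units, starting at 0) on each array of rsl4-1, Col-0 and 35S::RSL4 for the 19 members with 1 annotated gene, ordered by total difference. Coloured points are single arrays and black bars show the mean ± SD of 2 arrays; AT5G26670, AT3G15650 and AT1G68710 have tight replicates, while AT4G36440 and AT1G68400 have an rsl4-1 array that nearly meets a Col-0 array.

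Genes of the cell wall and the space outside the plasma membrane made up one group of named members. AT5G26670 encodes a pectin acetylesterase, an enzyme that removes acetyl groups from wall pectin. Its signals were 73.2 and 72.8 in rsl4-1, 52.8 and 52.7 in Col-0, and 25.1 and 30.5 in 35S::RSL4. This was the largest total difference among the 19 named members, 2.64-fold, with 33.5% of it in the first step, and the closest arrays of neighbouring genotypes were 0.46 and 0.79 apart on the log2 scale.

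AT5G21105 belongs to the ascorbate oxidases, copper enzymes of the apoplast that set the redox state of ascorbate. It gave 201 and 221 in rsl4-1, 158 and 160 in Col-0, and 112 and 133 in 35S::RSL4, a total of 1.73-fold split almost evenly between the steps. AT2G31110, also called TBL40, is a member of the TRICHOME BIREFRINGENCE-LIKE family, whose studied members acetylate wall polysaccharides. It measured 80.1 and 92.4 in rsl4-1, 70.1 and 69.5 in Col-0, and 49.3 and 62.7 in 35S::RSL4, in total 1.55-fold, the smallest among the named members. AT2G15440 encodes a protein of a domain family linked to xylan formation, and its signals of 48.4 and 35.6, 28.4 and 33.9, and 21.7 and 25.4 in the same order of genotypes were among the dimmest. Its lower rsl4-1 array and its higher Col-0 array were 0.07 apart on the log2 scale.

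AT2G31110 is the only one of the 19 loci with a second probe set, and that one, 266473_at, did not enter by the rule. It read 45.5 and 35.4 in rsl4-1, 30.9 and 30.4 in Col-0, and 18.0 and 31.5 in 35S::RSL4. Both rsl4-1 arrays were above both Col-0 arrays here too, but the higher 35S::RSL4 array was above both Col-0 arrays, so the second step was not separated. The probe sets measure the same RNA on the same arrays and are not independent samples.

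Relatives of these wall genes were set beside them, in families assembled after the data were seen. Of 17 other tested probe sets of the TRICHOME BIREFRINGENCE-LIKE family, counting the second one of AT2G31110, limma called 1 higher in rsl4-1 than in Col-0 and 1 higher in 35S::RSL4 than in Col-0, and none lower in either. Over all 14170 probe sets tested, limma called 3.81% in the first comparison and 6.27% in the second, and the 2 comparisons share the Col-0 arrays. TBL38, which lies in the left-out stretch of chromosome 1, gave 459 and 394 in rsl4-1, 271 and 253 in Col-0, and 294 and 254 in 35S::RSL4. It was 1.63-fold higher in rsl4-1 (log2 change 0.70, limma adjusted p = 0.0072), and it missed the threshold when rsl4-1 replicate 1 or Col-0 replicate 2 was dropped (adjusted p = 0.125 and 0.104). In 35S::RSL4 its log2 change was 0.06 (adjusted p = 0.84), so the second step of AT2G31110 had no counterpart in the values of TBL38. TBL41 was instead 1.63-fold higher in 35S::RSL4 than in Col-0 (log2 change 0.70, adjusted p = 0.012), with 131 and 122 against 70.7 and 85.7. It missed the threshold when Col-0 replicate 1 or either 35S::RSL4 array was dropped (adjusted p = 0.186 for Col-0 replicate 1, 0.0701 and 0.0537 for 35S::RSL4 replicates 1 and 2). Among 4 other tested pectin acetylesterase probe sets limma called none in either comparison, and their median log2 change was 0.04 in rsl4-1 and -0.21 in 35S::RSL4.

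A second group comprised receptors and signalling proteins. MOL1 is a leucine-rich repeat receptor-like kinase that restrains cambium activity, the cell division behind thickening of stems. Its signals were 120 and 159 in rsl4-1, 109 and 114 in Col-0, and 94.9 and 80.8 in 35S::RSL4, in total 1.58-fold. The lower rsl4-1 array exceeded the higher Col-0 array by 0.08 on the log2 scale, less than the spread of the rsl4-1 arrays themselves.

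AT1G68400 encodes another leucine-rich repeat receptor-like kinase. It gave 58.6 and 40.9 in rsl4-1, 40.2 and 33.2 in Col-0, and 29.2 and 28.6 in 35S::RSL4, where rsl4-1 and Col-0 nearly touched. AT5G39670 encodes a protein with EF-hands, the calcium-binding loops of calcium sensors. Its signals of 44.1 and 38.9 in rsl4-1, 30.4 and 35.2 in Col-0, and 16.2 and 24.6 in 35S::RSL4 put 32.2% of a 2.08-fold total into the first step. With a mean rsl4-1 signal of 41.5 it was the member closest to the signal minimum.

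ATC is a relative of TERMINAL FLOWER 1 and FT, small proteins best known as mobile signals that hold back or promote flowering. It was among the brighter members, with 335 and 403 in rsl4-1, 269 and 222 in Col-0, and 216 and 150 in 35S::RSL4. The total was 2.04-fold, but the lower Col-0 array and the higher 35S::RSL4 array differed by only 0.04 on the log2 scale. AT1G05710 encodes a basic helix-loop-helix protein, the class of transcription factor to which RSL4 belongs. Its signals were 228 and 210 in rsl4-1, 170 and 186 in Col-0, and 145 and 126 in 35S::RSL4, in total 1.62-fold, with a first step of 0.301 that was the smallest of all members.

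Enzymes of lipids, nucleotides and DNA formed another group. AT1G68710 encodes a P4-type ATPase, one of the flippases that move phospholipids between the leaflets of a membrane. It read 135 and 126 in rsl4-1, 90.6 and 92.7 in Col-0, and 69.8 and 71.1 in 35S::RSL4, in total 1.85-fold with close replicates in each genotype. Limma called none of 4 other tested flippase probe sets in either comparison, a number too small to set against the 3.81% and 6.27% called over all probe sets, and their median log2 changes were 0.15 in rsl4-1 and 0.07 in 35S::RSL4.

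AT3G15650 encodes an alpha/beta hydrolase, a large fold class that includes esterases and lipases. Its signals of 113 and 109 in rsl4-1, 78.5 and 75.5 in Col-0, and 54.7 and 51.0 in 35S::RSL4 gave 1 of the most even falls, 1.45-fold and then 1.46-fold. It was also the only named member with both steps above 0.5 on the log2 scale. AT2G21550 encodes a dihydrofolate reductase-thymidylate synthase, an enzyme type that supplies thymidylate for DNA synthesis. It measured 57.5 and 52.0 in rsl4-1, 43.2 and 41.4 in Col-0, and 28.1 and 31.6 in 35S::RSL4, in total 1.84-fold. AT1G80850 encodes a DNA glycosylase, which removes damaged bases, and had 59.0 and 47.0, 40.9 and 42.7, and 37.4 and 29.2 in the same order of genotypes.

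AT3G16530 encodes a legume-type lectin, a sugar-binding protein of a class linked to defence. It was the brightest named member, with 486 and 411 in rsl4-1, 307 and 333 in Col-0, and 252 and 227 in 35S::RSL4, in total 1.87-fold. The genotypes were about equally far apart, by 0.30 and 0.28 on the log2 scale between their closest arrays.

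The remaining 5 named members are given without a role. AT2G46630 gave 230 and 210 in rsl4-1, 159 and 179 in Col-0, and 105 and 145 in 35S::RSL4. AT4G36440 gave 290 and 219, 218 and 191, and 148 and 144 in that order, and its lower rsl4-1 array lay only 0.01 above its higher Col-0 array on the log2 scale, the narrowest gap of any member between these genotypes. For AT5G67390 the total was 1.57-fold, with rsl4-1 signals of 80.4 and 61.7 that spanned more than the step to its Col-0 signals of 60.1 and 53.5. By contrast AT5G62550 had nearly identical replicates in Col-0 (65.4 and 65.5) and in 35S::RSL4 (53.2 and 52.8), below 75.1 and 92.2 in rsl4-1. AT3G19200 also had close replicates, at 41.6 and 47.2, 34.8 and 34.7, and 26.7 and 28.0.

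The largest totals belonged mostly to probe sets without a single gene. Probe set 247718_at gave 107 and 99.7 in rsl4-1, 18.8 and 12.6 in Col-0, and 9.75 and 9.60 in 35S::RSL4. It was the only member below the array's 40th percentile on both arrays of Col-0 and of 35S::RSL4. It was at least 4.63-fold higher in rsl4-1 than in Col-0 and at least 5.06-fold higher than in 35S::RSL4, each bound being taken, per array, against whichever of the dim signal and that percentile was higher. Since both Col-0 and 35S::RSL4 were dim, no fold is given for its second step.

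Probe set 249490_s_at, assigned to 4 loci whose signals cannot be separated, had the largest second step. Its signals were 136 and 105 in rsl4-1, 81.5 and 63.0 in Col-0, and 36.3 and 27.8 in 35S::RSL4, in total 3.76-fold. Probe set 247717_at was bright and tightly replicated, at 447 and 422, 249 and 249, and 161 and 140, with steps of 1.75-fold and 1.66-fold. The brightest member, 254818_at, gave 902 and 846 in rsl4-1, 626 and 519 in Col-0, and 373 and 300 in 35S::RSL4, in total 2.61-fold. Probe set 259813_at followed in brightness with 512 and 490, 378 and 336, and 234 and 202. These 3 unlisted probe sets were among the brighter members, but the minimum signal in rsl4-1 kept dim transcripts out of the set. At any signal, 201 probe sets met the order and both steps, against 52 with the minimum, with no locus or family left out.

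Other unlisted members differed in evenness and in replicate spread. Probe set 255760_at gave 68.4 and 77.5 in rsl4-1, 41.0 and 42.6 in Col-0, and 34.0 and 25.0 in 35S::RSL4, in total 2.50-fold, with the larger step, 1.74-fold, between rsl4-1 and Col-0. Nearly even steps were seen in 264859_at (1.38-fold and 1.42-fold) and 250983_at (1.33-fold and 1.44-fold). In 264859_at the signals were 266 and 218, 168 and 182, and 121 and 126 in that order, and in 250983_at they were 74.3 and 73.5, 54.2 and 56.8, and 39.7 and 37.5. The replicates of 250983_at were closer to each other than those of 264859_at, and neither overlapped between genotypes by construction of the rule. Wider replicate spreads were seen in 264513_at, with 53.6 and 78.0 in rsl4-1, 47.1 and 39.1 in Col-0, and 33.7 and 22.0 in 35S::RSL4, and in 264436_at, with 48.2 and 37.5, 33.0 and 31.3, and 17.5 and 24.5. The least separated unlisted member was 248619_at, whose 48.7 and 43.4 in rsl4-1, 32.5 and 41.5 in Col-0, and 22.1 and 32.3 in 35S::RSL4 left gaps of 0.06 and 0.01 on the log2 scale.

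Over the 25 unlisted members the median total was 1.92-fold (lowest 1.53-fold, highest at least 5.06-fold in 247718_at), and over the 19 named members 1.73-fold (range 1.55-fold to 2.64-fold). Totals of at least 1 on the log2 scale were seen in 10 of the 25 and in 4 of the 19. Gene identity is therefore missing for most of the larger differences.

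**Figure D3:**
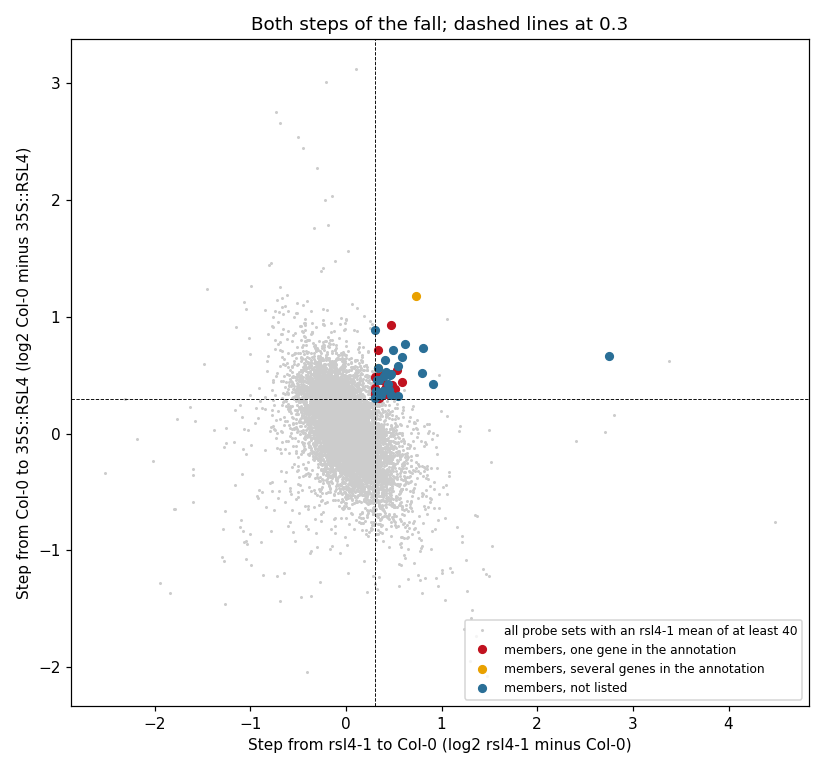
The step from rsl4-1 to Col-0 (horizontal axis) against the step from Col-0 to 35S::RSL4 (vertical axis), both on the log2 scale, for all probe sets with an rsl4-1 mean of at least 40 (grey) and for the 46 members coloured by annotation. Both steps use the same Col-0 arrays, so the slope of the grey cloud is not a result; members crowd near the dashed lines at 0.3, and the point far to the right is 247718_at, drawn at its measured signals although its Col-0 and 35S::RSL4 signals were dim, so that its first step is only known to be at least 4.63-fold.

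The members differed in how the fall was divided. The second step was the larger in 27 members and the first in 19, among them 247718_at, whose second step was not measurable. In 34 of 46 the first step made up between 40% and 60% of the total. The rule asked for at least 0.3 in each step and the median total was 0.88, so the rule itself favoured even shares. The first-step share was lowest in 260856_at, at 25.4%, with signals of 62.9 and 88.5 in rsl4-1, 60.0 and 60.9 in Col-0, and 27.9 and 38.1 in 35S::RSL4. Among members above the 40th percentile in Col-0 it was highest in 262128_at, at 68.2%, with 98.3 and 95.9, 52.5 and 51.2, and 45.5 and 32.9. When each array was divided by its median, the members' median first step became 0.46 and their median second step 0.34, so the order of the 2 steps turned with the scaling.

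The separation between genotypes was narrow for many members. The smaller of the 2 gaps between the closest arrays of neighbouring genotypes had a median of 0.18 on the log2 scale and ranged from 0.01 to 0.63. It was under 0.1 in 11 members, in 8 between rsl4-1 and Col-0 and in 4 between Col-0 and 35S::RSL4. Both gaps exceeded the member's own pooled replicate SD in 21 of 46. Within rsl4-1, 31 members read higher on replicate 1 and 15 on replicate 2, against 25 higher on replicate 1 in each of the other genotypes.

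Values close to the thresholds show where the set was cut. The smallest first steps inside were those of AT1G05710 (0.301) and AT2G31110 (0.302), and the nearest outside were 259592_at (0.297) and AT5G45430 (0.286). For the second step, 260141_at and AT5G62550 (0.304 each) were just inside, and AT3G63340 (0.299) and AT3G53190 (0.280) just outside. For the rsl4-1 signal, AT5G39670 (41.5) and AT2G15440 (42.0) were inside, and CHR18 (37.6) and ATPMEPCRB (37.2) outside. Another 136 probe sets met every condition except the signal, 65 every one except the first step, and 29 every one except the second.

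**Figure D4:**
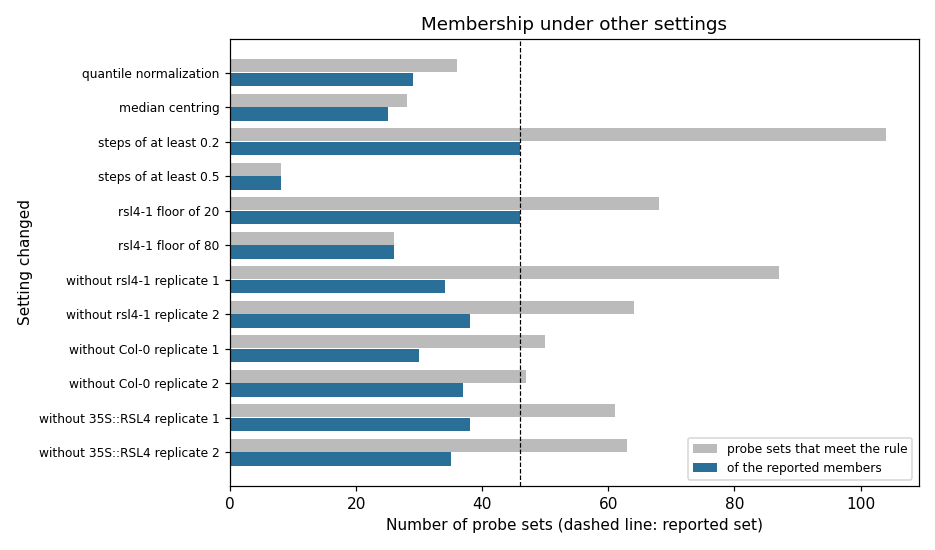
Number of probe sets (horizontal axis, starting at 0) that met the rule when 1 setting was changed (grey), and how many of the 46 reported members were among them (blue); the dashed line marks 46. Median centring kept 25 members and steps of at least 0.5 kept 8, while each array left out kept between 30 and 38.

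A further 6 probe sets with the pattern were left out by locus or family. They include AT5G19890, a class III peroxidase, with mean signals of 89.5 in rsl4-1, 42.9 in Col-0 and 21.7 in 35S::RSL4, AT4G33720 of the CAP family with 241, 23.2 and 15.6, and the sugar transporter gene SWEET14 with 41.0, 20.8 and 15.2. AT1G21090, AT1G27620 and AT1G29060 were left out for lying in the stretch of chromosome 1 that includes RSL4. The 25 unlisted members could not be checked against these loci and families, so some may belong to them.

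Genes of 21 lists of root cell types, hormones, nutrients and stress responses were looked up, and of their 210 genes 16 had an annotated probe set and 11 were tested. None was a member. In rsl4-1 against Col-0, limma called 1 of the 11 lower and none higher (background 2.15% lower and 1.67% higher), and in 35S::RSL4 against Col-0 it called 4 lower and none higher (2.88% lower and 3.39% higher). The 4 were STZ, CML38, WRKY53 and LHCB4.1, and CML38 entered the test only through its Col-0 signals. All but LHCB4.1 belong to the rapid stress response list. The lists were chosen with earlier results of these data known, so these counts are no independent excess over the background. None of the 11 was higher in rsl4-1 and lower in 35S::RSL4 even by sign. That combination was held by 18.5% of all tested probe sets outside the members. The 11 thus held no further example of the members' pattern, but they are too few to set against that share.

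Of the 3 measured genes of the rapid stress response list, STZ and WRKY53 fell in 35S::RSL4, in the direction of the members' second step. STZ, a zinc finger repressor, gave 60.5 and 61.5 there against 301 and 290 in Col-0 (log2 change -2.28, limma adjusted p = 2.1e-07). With 229 and 249 in rsl4-1, below Col-0, STZ did not meet the rule. Its locus, AT1G27730, also lies in the left-out stretch of chromosome 1, numbered directly before RSL4 (AT1G27740). Whether this position bears on its signal was not tested. WRKY53, a transcription factor of senescence and defence, gave 15.5 and 13.4 against 38.4 and 34.2 (adjusted p = 0.0047), and it missed the threshold when Col-0 replicate 1 or the second 35S::RSL4 array was dropped (adjusted p = 0.0832 and 0.0501). Both 35S::RSL4 signals of WRKY53 were below the 40th percentile of their arrays (20.6 and 20.3), so the size of its fall is only a bound. CML38, a calmodulin-like gene, gave 10.4 and 8.29 against 29.3 and 28.2 (limma adjusted p = 0.0036). It passed the filter only through the 2 Col-0 arrays, the group where it was high, so its call is no independent support, and it was too dim to be tested without either of them. In rsl4-1 their log2 changes were -0.31, -0.50 and -0.77 (adjusted p = 0.28, 0.36 and 0.19), opposite in sign to the members' first step. Whether this response has any part in the members' second step was not tested.

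Of the 2 measured shoot tissue markers, LHCB4.1 was lower in both lines than in Col-0 (log2 changes -0.67 and -0.70, adjusted p = 0.016 and 0.0093), and RCA had log2 changes of -0.22 and -0.23 (adjusted p = 0.54 and 0.39). For rsl4-1, the call of LHCB4.1 was lost when any of the rsl4-1 or Col-0 arrays was dropped (adjusted p from 0.0538 to 0.212) and with a variance model without an intensity trend (adjusted p = 0.0567). For 35S::RSL4 it was lost when Col-0 replicate 1 or the second 35S::RSL4 array was dropped (adjusted p = 0.155 and 0.0695). The summed signal of both markers was 258 and 258 in rsl4-1, 387 and 324 in Col-0, and 257 and 251 in 35S::RSL4, highest in Col-0 and so unlike the order of the members. Only TRY of the epidermal patterning and non-hair cell list had a probe set. It was below the filter in every genotype (means 7.97, 3.85 and 5.10). Of the root hair growth list, only SCN1 had a probe set, and limma called it in neither comparison. Its signals were 353 and 411 in rsl4-1, 366 and 380 in Col-0, and 422 and 412 in 35S::RSL4. The log2 changes of SCN1 were 0.03 in rsl4-1 and 0.16 in 35S::RSL4 (limma adjusted p = 0.94 and 0.49). No gene of the endodermis, root cap, vascular or meristem lists had a probe set here, so the cell types behind the members were not assessed.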

How the data were processed

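Values were deposited as intensity on a linear scale and made with the MAS5 algorithm in GCOS, per the submitters' processing notes, which are without versions here. The trimmed mean of each array was 100.01, so the authors had scaled all arrays alike and no further scaling was applied. Such scaling hides any change in total RNA, and dim probe sets vary widely under MAS5. Precision is limited by the number of arrays.

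Of 22810 probe sets 64 controls were left out. The annotation gave 1 gene for 13513, of which 13436 were matched by gene number to RefSeq genes of assembly TAIR10.1, gave several genes for 503 and did not list 8730. No sequences or coordinates were used. Class III peroxidases and CAP genes were left out by locus. The members, gene lists and families were chosen with earlier results of these data known. Named are all members with 1 gene, the largest of the others, and the 2 nearest probe sets on each side of each threshold. List or family genes that were called are named too, as are genes of the cell type lists that had a probe set.

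Non-members were tested with limma 3.58.1 in R 4.3.3 on log2 signals (lmFit, eBayes with an intensity trend, all 6 arrays), two-sided with Benjamini-Hochberg adjustment over 14170 probe sets above the 40th percentile on at least 2 arrays and a threshold of 0.05; the fit was tested on simulated data. Folds are ratios of geometric means. Alternatives were other scalings, thresholds, filters and variance models, a replicate block and leaving out each array.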

Additional observations from a re-analysis of the deposited data

How the results depend on the processing

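Against 46 members, the rule gave 28 with median centring, 104 with steps of at least 0.2, 8 with steps of at least 0.5 and 26 with an rsl4-1 minimum of 80. It gave 36 with quantile normalization (29 of the reported members), 68 with a minimum of 20 and 52 with nothing left out. Leaving out 1 array gave 47 to 87 probe sets, with 87 without rsl4-1 replicate 1; fewer arrays loosen the order the rule asks for. Strict order of the arrays was kept by 41 of the 46 members with quantile normalization and by 40 with median centring. Of the 46, 14 met the rule without each array in turn, and 13 of these also under both other scalings, among them AT5G26670, AT3G15650 and AT3G16530. Limma called 540 probe sets in rsl4-1 against Col-0 (236 higher, 304 lower) and 888 in 35S::RSL4 against Col-0 (480 higher, 408 lower). With no filter it called 265 and 404, and with no intensity trend 357 and 564. Leaving out 1 array gave 204 to 522 and 212 to 759. For rsl4-1 it gave 222 and 236 without rsl4-1 replicates 1 and 2, and 252 and 204 without Col-0 replicates 1 and 2. For 35S::RSL4 it gave 212 and 370 without Col-0 replicates 1 and 2, and 334 without 35S::RSL4 replicate 2. Median centring gave 323 higher and 261 lower, and 889 higher and 233 lower. A replicate block gave 520 and 802. The deviations of same-numbered arrays correlated at -0.19, -0.08 and 0.12 across probe sets, so the numbers were not taken as pairs. The cause of these changes was not tested.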
